A study of Mus musculus with 3 samples.

Results

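The miR-23, miR-27 and miR-24 microRNAs of the mouse are made from a pair of paralogous gene clusters, miR-23a-27a-24-2 and miR-23b-27b-24-1. Of the 1908 mature microRNAs in the deposited counts, 9 were selected by name as products of these clusters. They are the 3p arms mmu-miR-23a-3p, mmu-miR-23b-3p, mmu-miR-27a-3p, mmu-miR-27b-3p and mmu-miR-24-3p, and the 5p arms mmu-miR-27a-5p, mmu-miR-27b-5p, mmu-miR-24-1-5p and mmu-miR-24-2-5p. All 9 had reads in each of the 3 libraries. The species prefix is left out in most places below.

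The libraries came from livers of fasted male C57BL/6J mice, an inbred strain, aged 8 to 10 weeks and operated on under anesthesia with an opened abdomen. In the Sham group no vessel was occluded. In the warm ischemia (WI) group the vessels and bile duct to the left and median lobes were clamped for 90 min. The ischemia followed by reperfusion (IR) group had the same clamping and then restored blood flow for 120 min. Each group was represented by 1 library, and whether a library pooled several mice was not stated. Sham livers were taken after a wait equal to the clamping time, so reperfusion and time since surgery cannot be told apart in the IR sample. No difference below has a replicate check, and each test compares 2 libraries and not 2 conditions.

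A microRNA hairpin is cut into a 5p and a 3p arm, and the arm that is kept guides the silencing complex to messenger RNAs through its seed, bases 2 to 8. The hairpins of a cluster are cut from a common primary transcript, so its products share their transcription, while processing and decay act on each hairpin and arm. Both clusters are known in endothelial cells, where they act on vessel growth. In liver, miR-23b cluster products are known to repress Smads, the mediators of TGF-beta signaling, and miR-27b represses genes of lipid metabolism. MiR-23 is known to repress glutaminase, which breaks down glutamine, and miR-24 is known to repress cell cycle genes.

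The sequences are shown because they decide which products share a seed and which can be confused in counting. RefSeq mature sequences were matched for 8 of the 9 members (GRCm38.p6), all but miR-23b-3p, and they are given here 5′ to 3′ with the seed in capitals.
miR-23a-3p: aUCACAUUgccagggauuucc
miR-27a-3p: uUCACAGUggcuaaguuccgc
miR-27b-3p: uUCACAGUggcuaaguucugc
miR-24-3p: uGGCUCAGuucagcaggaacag
miR-27a-5p: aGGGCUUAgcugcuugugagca
miR-27b-5p: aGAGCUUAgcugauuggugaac
miR-24-1-5p: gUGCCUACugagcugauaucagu
miR-24-2-5p: gUGCCUACugagcugaaacagu
MiR-27a-3p and miR-27b-3p share a seed and differ by 1 base of 21, C19U, counted from the 5′ end with the base of miR-27a-3p first. The authors allowed 1 mismatch in alignment, so reads of either can be counted under the other name. The 5p arms of miR-27a and miR-27b differ at 8 of 22 positions, including 1 in the seed (G3A). The miR-24 5p arms share a seed and differ at 5 of the 22 positions they have in common, all from base 17 onward. These counts for the 5p arms compare bases from the 5′ end without gaps, so a shift by 1 base adds differences. MiR-24-3p is cut from both clusters as the same sequence, so its reads cannot be assigned to either. Among other mouse microRNAs in the RefSeq sequences, 4 carry the miR-24-3p seed (miR-6413, miR-6410, miR-6369 and miR-5124b), and each had 0 reads in every library. No other shared seed was found outside the members for the 8 sequences.

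The hairpins of the miR-23a cluster lie on the plus strand of chromosome 8 within 404 bases (84208518 to 84208921, GRCm38.p6), with no overlapping protein-coding gene. Those of the miR-23b cluster lie within 792 bases on the plus strand of chromosome 13 (63300484 to 63301275), inside the protein-coding gene Aopep. In the GENCODE annotation of the older NCBIM37 (mm9) assembly, miR-23b and miR-27b are intronic on the strand of their host, which is named 2010111I01Rik there.

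Reads assigned to microRNAs numbered 3844133 for Sham, 5064014 for WI and 3784539 for IR, and triplets of values below keep this order. Levels are counts per 1000000 reads (CPM) after scaling by the trimmed mean of M-values (TMM), which sets the bulk of microRNAs equal between libraries. The level worth 3 reads, taken as the floor, was 0.758, 0.617 and 0.785 CPM. Intervals and standard errors (SE) cover counting error only, and differences in capture between sequences are not corrected. These are whole-tissue libraries, in which fewer cells of a type and less RNA per cell cannot be told apart. Hepatocyte miR-122-5p stood at 15960, 18999 and 15364 CPM. The summed endothelial markers were at 19267, 22783 and 17568 CPM and the mesenchymal ones at 39455, 42874 and 35008, with no member of either list called in any comparison. Most of the endothelial sum was miR-126a-5p, while the other marker, miR-126a-3p, stood at 2956, 2951 and 2985 CPM. Nearly all of the mesenchymal sum was miR-143-3p.

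Most of the output of both clusters was mmu-miR-27b-3p. It had 108548, 140874 and 103918 reads, or 27411, 28957 and 27175 CPM, and held rank 9 by abundance in each library. The 9 members together held 3.11% of all microRNA reads in Sham (95% Wilson interval 3.10 to 3.13), with 3.07% (3.05 to 3.08) and 3.09% (3.08 to 3.11) in the other libraries. MiR-27b-3p made up 90.7%, 90.7% and 88.7% of the members' reads. The other 8 members summed to 2807, 2986 and 3451 CPM, highest in IR, and the rise lay mainly in miR-23b-3p. Within these sums miR-23b-3p was at 839, 1053 and 1516 CPM and miR-24-3p at 681, 635 and 626. The 4 products of the miR-23a cluster alone summed to 1243, 1258 and 1276 CPM.

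The paralogue mmu-miR-27a-3p stood at 827, 762 and 794 CPM, from 3276, 3706 and 3038 reads. Its reads were 3.02%, 2.63% and 2.92% as many as those of miR-27b-3p. Thus 97.1% (95% Wilson interval 97.0 to 97.2), 97.4% (97.4 to 97.5) and 97.2% (97.1 to 97.3) of miR-27 3p reads carried the miR-27b name. How many of the miR-27a-3p reads are misassigned reads of its paralogue was not tested.

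The level of mmu-miR-23b-3p was far below that of miR-27b-3p, its neighbor in the cluster. It had 3323, 5124 and 5797 reads, or 839 CPM (95% Poisson interval 811 to 868), 1053 CPM (1025 to 1082) and 1516 CPM (1477 to 1555). The 3 intervals do not overlap, with Sham lowest and IR highest, and its rank by abundance went from 56 to 52 and 42.

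MiR-23a-3p had 1171, 1701 and 1361 reads, or 296, 350 and 356 CPM. Its interval was lower in Sham (279 to 313) than in WI (333 to 367) and IR (337 to 375), which overlapped. MiR-24-3p, the product common to both clusters, had 2698, 3087 and 2393 reads, or 681, 635 and 626 CPM, with overlapping intervals in WI (612 to 657) and in both others (656 to 708 for Sham, 601 to 651 for IR), while those of Sham and IR were apart.

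The order of the 3p arms was miR-27b-3p, miR-23b-3p, miR-27a-3p, miR-24-3p and miR-23a-3p in each library. In Sham the neighbors miR-23b-3p and miR-27a-3p did not differ beyond counting error, since the interval of miR-27a-3p (799 to 856 CPM) overlapped that of miR-23b-3p. They were apart in WI and IR, where miR-27a-3p had 737 to 787 and 766 to 823 CPM. The ratio of miR-27b-3p to miR-24-3p was 40.2, 45.6 and 43.4.

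Among the 5p arms, miR-24-2-5p was the most abundant, with 453, 645 and 461 reads (114, 133 and 121 CPM), which is 16.8%, 20.9% and 19.3% of the miR-24-3p reads. MiR-27b-5p followed with 160, 185 and 120 reads (40.4, 38.0 and 31.4 CPM), and made up 0.147%, 0.131% and 0.115% of the reads of both miR-27b arms. MiR-27a-5p had 24, 67 and 20 reads (6.06, 13.8 and 5.23 CPM) and was highest in WI. MiR-24-1-5p was the least abundant member, with 11, 14 and 7 reads.

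**Figure D1:**
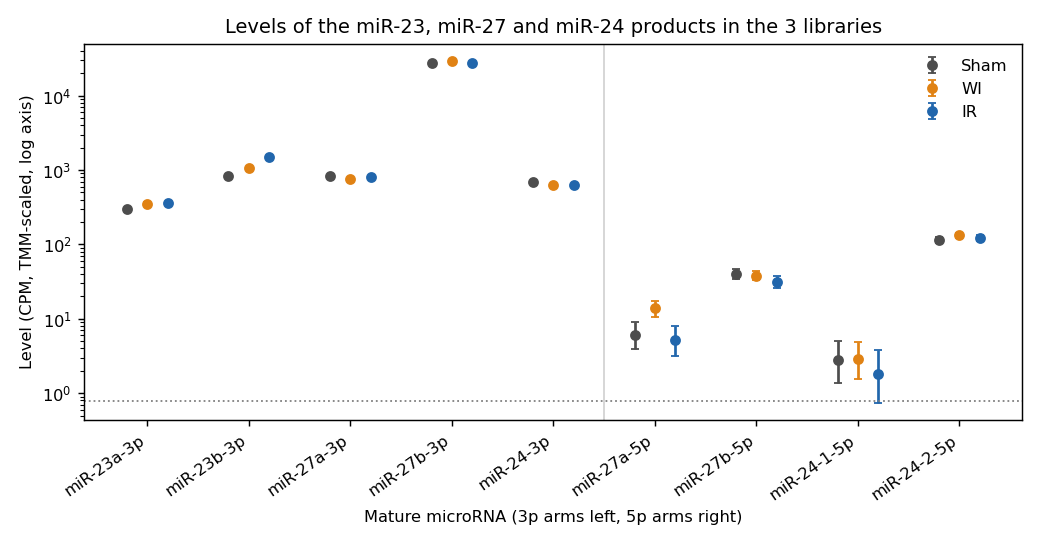
Level of each member in the Sham, WI and IR libraries in TMM-scaled CPM on a log axis, with 95% Poisson intervals of the reads (1 library per group) and the highest floor of 3 reads as a dotted line. MiR-27b-3p lies at 27175 CPM or more in each library, miR-23b-3p goes from 839 to 1516 CPM, and miR-27a-5p is highest in WI.

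The remaining products of these loci were near or under the floor. MiR-23a-5p had 0, 0 and 1 reads and miR-23b-5p 1, 2 and 0, so both miR-23 hairpins were seen almost entirely through their 3p arms. On the strand opposite miR-24, miR-3074-5p had 5, 7 and 9 reads and miR-3074-1-3p had 2, 4 and 4. MiR-3074-2-3p had 0 in each library, and the upper limit of its Poisson interval in IR was 0.965 CPM.

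Paralogous products differed in which cluster supplied them. The miR-23b cluster accounted for 73.9% of miR-23 3p reads in Sham and for nearly all miR-27 3p reads. Of the miR-24 5p reads, by contrast, miR-24-1 gave 2.37% (95% Wilson interval 1.33 to 4.19), 2.12% (1.27 to 3.53) and 1.496% (0.726 to 3.05), and the rest carried the name of miR-24-2 from the miR-23a cluster.

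**Figure D2:**
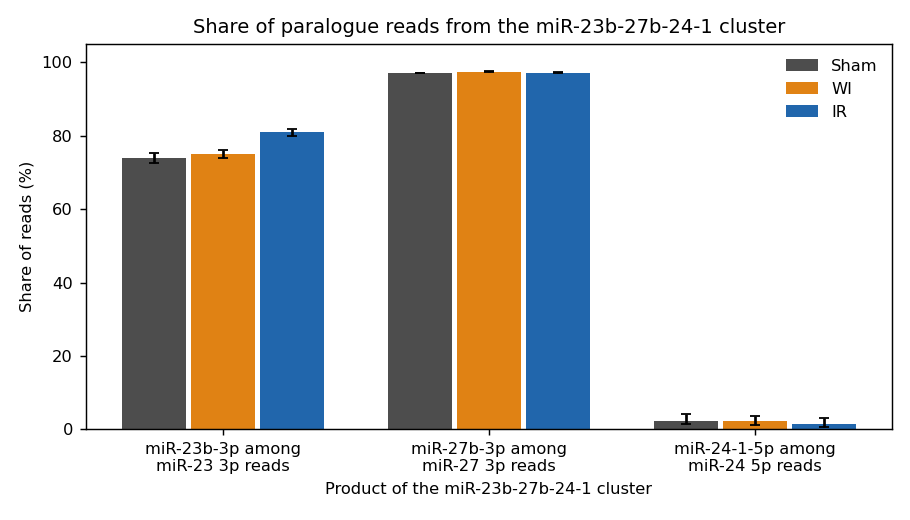
Share of reads of each paralogue pair that carried the name of the miR-23b-27b-24-1 product (percent, 95% Wilson intervals, 1 library per group). For miR-23 3p the share is 73.9% in Sham, 75.1% in WI and 81.0% in IR, for miR-27 3p it is between 97.1% and 97.4%, and for miR-24 5p it is at most 2.37%.

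Each microRNA detected in either of 2 libraries was compared between them on its reads by Fisher's exact test (two-sided). Calls needed more than a 1.5-fold difference together with p below 0.01 before adjustment. Log2 fold changes were taken on log2(CPM + 0.1). WI relative to Sham is called the ischemia step, IR relative to WI the reperfusion step, and IR relative to Sham the full course. Adjusted p-values (Benjamini-Hochberg) are over all microRNAs tested.

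In the ischemia step miR-27a-5p rose and was the 1 member called of 9, where 1.92% of 782 tested microRNAs were called and 1.41% were called higher. It had 24 reads in Sham and 67 in WI, a difference of 1.17 on the log2 scale (SE 0.34, Fisher's exact p = 0.00031, adjusted p = 0.0033). The partner arm miR-27a-3p was not called, with a log2 fold change of -0.12 (SE 0.03). MiR-23b-3p, at 0.33 (SE 0.03), and miR-23a-3p, at 0.24 (SE 0.05), were above Sham by more than counting error but below the fold threshold. The log2 fold changes of miR-24-2-5p, miR-27b-3p and miR-24-3p were 0.21 (SE 0.09), 0.08 (SE 0.0058) and -0.10 (SE 0.04). The median of the 9 members was 0.08, against 0.05 over all tested.

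In the reperfusion step miR-27a-5p fell by 1.38 on the log2 scale (SE 0.37, Fisher's exact p = 5.38e-05, adjusted p = 0.00041), to 20 reads. It was again the 1 member called of 9, where 9.25% of 789 microRNAs were called and 3.04% were called lower. Both steps use the same WI library, so its rise and fall share the count of 67 reads and are not independent. MiR-23b-3p was above WI by 0.53 (SE 0.03), a 1.44-fold difference that did not reach 1.5. MiR-23a-3p, at 0.03 (SE 0.05), and miR-24-3p, at -0.02 (SE 0.04), were within counting error. MiR-27b-5p, at -0.28 (SE 0.17), and miR-24-2-5p, at -0.14 (SE 0.09), did not pass the test. The members' median was -0.09, against -0.01 over all tested.

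Over the full course miR-23b-3p rose and was the 1 member called of 9, where 7.11% of 774 microRNAs were called and 5.68% were called higher. Its log2 fold change was 0.85 (SE 0.03), a 1.81-fold rise, with Fisher's exact p = 2.64e-169 and adjusted p = 1.36e-167. Among the 136 microRNAs with at least 1000 reads over the 3 libraries, its log2 fold change ranked 10, 11 and 6 from the highest in the ischemia step, the reperfusion step and the full course. Of those 136, 0.735%, 11.0% and 13.2% were called. The p-value rests on the number of reads and holds no variation between animals. When a coefficient of variation of 0.2 between animals was assumed, edgeR's exact test gave p = 0.039 and no call, and with 0.1 the call was kept.

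Some markers of other cells were also called over the full course. Both erythroid microRNAs were called higher in IR than in Sham (summed level 1117, 1066 and 1961 CPM). Of the 4 leukocyte microRNAs 1 was called higher, miR-223-3p at 110, 109 and 236 CPM. The other leukocyte microRNAs were not called, with log2 fold changes of 0.11 (SE 0.10) for miR-142-3p, -0.22 (SE 0.02) for miR-142-5p and -0.32 (SE 0.10) for miR-150-5p. The summed leukocyte level, most of it miR-142-5p, was 3074, 3037 and 2792 CPM, lowest in IR. The 3 striated muscle microRNAs summed to 6.82, 23.8 and 75.1 CPM, nearly all of it miR-133a-3p, while miR-206-3p was at 0 in Sham and WI. The part of these cells in the rise of miR-23b-3p was not tested.

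The other 8 members were not called over the full course. MiR-23a-3p was above Sham by 0.27 on the log2 scale (SE 0.06), below the fold threshold. MiR-27b-3p stood at -0.01 (SE 0.0063), miR-27a-3p at -0.06 (SE 0.04) and miR-24-3p at -0.12 (SE 0.04). MiR-27a-5p, called in both steps, stood at -0.21 (SE 0.44), with 24 reads in Sham and 20 in IR. The 95% interval for miR-24-1-5p ran from -1.94 to 0.79, so neither a 2-fold lower nor a 1.5-fold higher level lay outside it. The members' median was -0.06, against 0.04 over all tested.

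**Figure D3:**
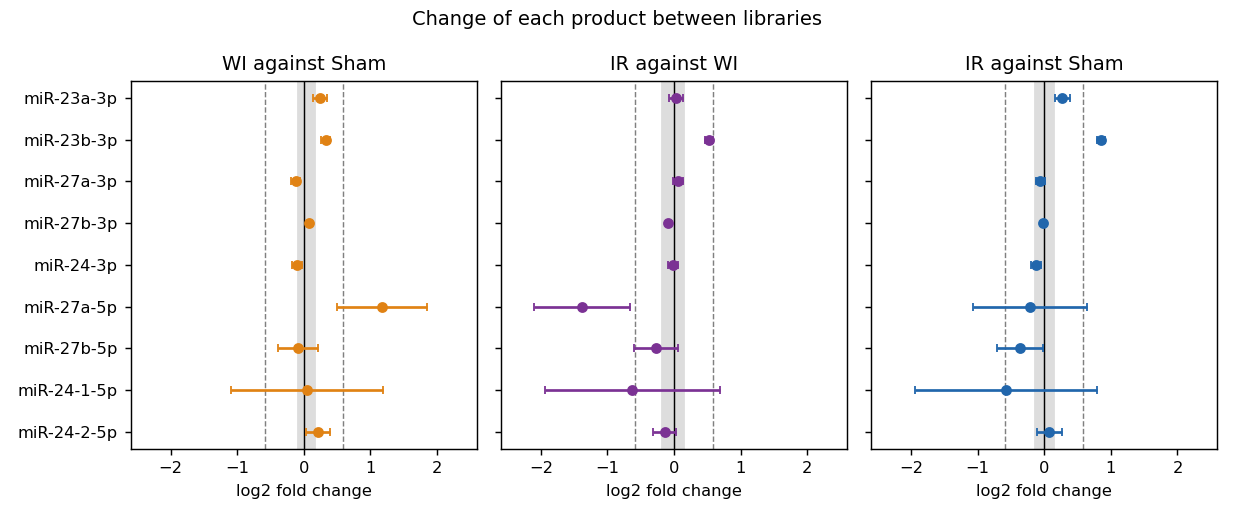
Log2 fold change of each member between the 3 pairs of libraries, with 95% intervals from the reads alone. Dashed lines mark a fold change of 1.5 and the grey band spans the quartiles of the 136 microRNAs with at least 1000 reads (-0.14 to 0.15 over the full course). MiR-27a-5p passes the lines upward from Sham to WI and downward from WI to IR, and miR-23b-3p passes them from Sham to IR.

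**Figure D4:**
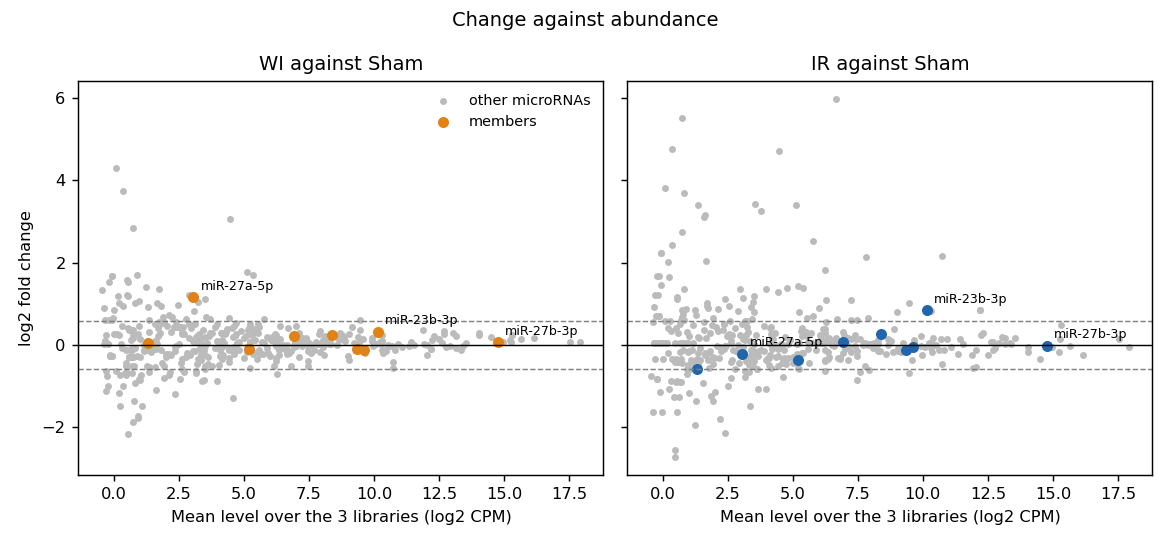
Log2 fold change of WI and of IR over Sham (left and right) by mean level (log2 CPM) for the 449 microRNAs with at least 10 reads over the 3 libraries, with the 9 members in color and dashed lines at a fold change of 1.5. MiR-27a-5p lies among microRNAs with few reads, where scatter is wide, while miR-23b-3p lies among abundant ones, where 0.735% (WI) and 13.2% (IR) were called among microRNAs with at least 1000 reads.

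Scaling shifts every fold change of a comparison together, so small differences depend on it. With the totals of genome-aligned reads in place of TMM, the median log2 fold change of microRNAs with at least 10 reads moved from 0.04 to 0.19 in the ischemia step, from -0.03 to -0.35 in the reperfusion step and from 0.01 to -0.16 over the full course. On that scale miR-23b-3p had 0.48, 0.20 and 0.68, and its call over the full course was kept. MiR-23a-3p had the opposite sign in the reperfusion step (-0.30). Over the full course it had 0.10, within counting error (Fisher's exact p = 0.087). The median shifts with the members, so whether a member lies above it says nothing on the choice of scaling. The split of all calls moved as well, from 49 higher and 24 lower to 38 and 73 in the reperfusion step, and from 44 and 11 to 35 and 27 over the full course. In the ischemia step it was 11 and 4 with TMM, 23 and 2 with genome-aligned totals and 7 and 10 with library totals.

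Ratios of reads inside a library do not depend on scaling, and they were used to ask whether the members of a pair moved together. The same test and thresholds were applied to the read ratios of 288 pairs in the whole table, of which 119 were pairs of arms, 167 were pairs of paralogues and 2 were the within-cluster pairs. Adjusted p-values for ratios are over all 288.

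The read ratio of the miR-23 paralogues was called over the full course. How many reads of miR-23a-3p and miR-23b-3p were counted under the other name, with 1 mismatch allowed, was not tested, and the shares below are of reads as named by the authors' counting. MiR-23b-3p was 2.84, 3.01 and 4.26 times as abundant as miR-23a-3p, and its share of miR-23 3p reads was 73.9% (95% Wilson interval 72.6 to 75.2), 75.1% (74.0 to 76.1) and 81.0% (80.1 to 81.9). The log2 ratio differed by 0.09 (interval -0.04 to 0.21, Fisher's exact p = 0.18) in the ischemia step and by 0.50 (0.38 to 0.62) in the reperfusion step, neither called. Over the full course it changed by 0.59 (SE 0.07, Fisher's exact p = 5.63e-19, adjusted p = 1.01e-17), a call that sits at the threshold with a fold of 1.501. Of the paralogue pairs, 1.2%, 9.58% and 7.78% were called in the ischemia step, the reperfusion step and the full course. Over the full course 56 of all 167 paralogue pairs, this one included, had an absolute difference at least as large. Among the 60 pairs with at least 1000 reads each, 2 did, and the median absolute difference was 0.18. The call was lost when a coefficient of variation of 0.2 between animals was assumed.

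For the miR-27 paralogues no ratio was called. The log2 ratio of miR-27b-3p to miR-27a-3p differed by 0.20 (SE 0.04) in the ischemia step, by -0.15 (SE 0.04) in the reperfusion step and by 0.05 (interval -0.03 to 0.12, Fisher's exact p = 0.22) over the full course.

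Within the miR-23b cluster, miR-23b-3p and miR-27b-3p diverged. MiR-23b-3p had 3.06%, 3.64% and 5.58% as many reads as miR-27b-3p. The log2 ratio differed by 0.25 (SE 0.03) in the ischemia step, below the fold threshold, and rose by 0.62 (SE 0.03, Fisher's exact p = 1.49e-105) in the reperfusion step. Over the full course it rose by 0.87 (SE 0.03, Fisher's exact p = 3.96e-167, adjusted p = 1.14e-164), a 1.82-fold difference. Both calls were lost at an assumed coefficient of variation of 0.2 and kept at 0.1. The rule there was a 95% interval that excluded no change, which is looser than p below 0.01. Of all 288 ratios, 2.43%, 8.33% and 6.25% were called in the ischemia step, the reperfusion step and the full course.

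Within the miR-23a cluster no ratio was called. MiR-23a-3p had 35.7%, 45.9% and 44.8% as many reads as miR-27a-3p, lowest in Sham. The log2 ratio differed by 0.36 (SE 0.06, Fisher's exact p = 2.53e-08) in the ischemia step, by -0.03 (SE 0.06) in the reperfusion step, within counting error, and by 0.33 (SE 0.07) over the full course. Whether this course differs from that of the miR-23b cluster was not tested.

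The arms of miR-27a parted in WI. MiR-27a-5p made up 0.727% of the reads of both arms in Sham (95% Wilson interval 0.489 to 1.08), then 1.78% (1.40 to 2.25) and 0.654% (0.424 to 1.01), so the WI interval overlapped neither of the others. The log2 ratio of 5p to 3p rose by 1.30 in the ischemia step (SE 0.34, Fisher's exact p = 7.79e-05, adjusted p = 0.00066) and fell by 1.46 in the reperfusion step (SE 0.37, Fisher's exact p = 2.91e-05, adjusted p = 0.00017). Of the 119 arm pairs, 4.2%, 5.88% and 3.36% were called in the ischemia step, the reperfusion step and the full course. The same ratio of miR-27b stood at -0.17 (SE 0.16) and -0.19 (SE 0.17) in these steps and was not called. The calls of miR-27a-5p itself rest on 24, 67 and 20 reads, and both steps share the WI count, as do the ratio calls. When a coefficient of variation of 0.2 between animals was assumed, edgeR's exact test gave p = 0.031 for the ischemia step and p = 0.013 for the reperfusion step, with no call in either.

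The log2 ratio of miR-24-1-5p to miR-24-2-5p differed by -0.68 over the full course (interval -2.06 to 0.70, Fisher's exact p = 0.35), and with 7 to 14 reads of miR-24-1-5p a difference was not detectable at this depth.

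**Figure D5:**
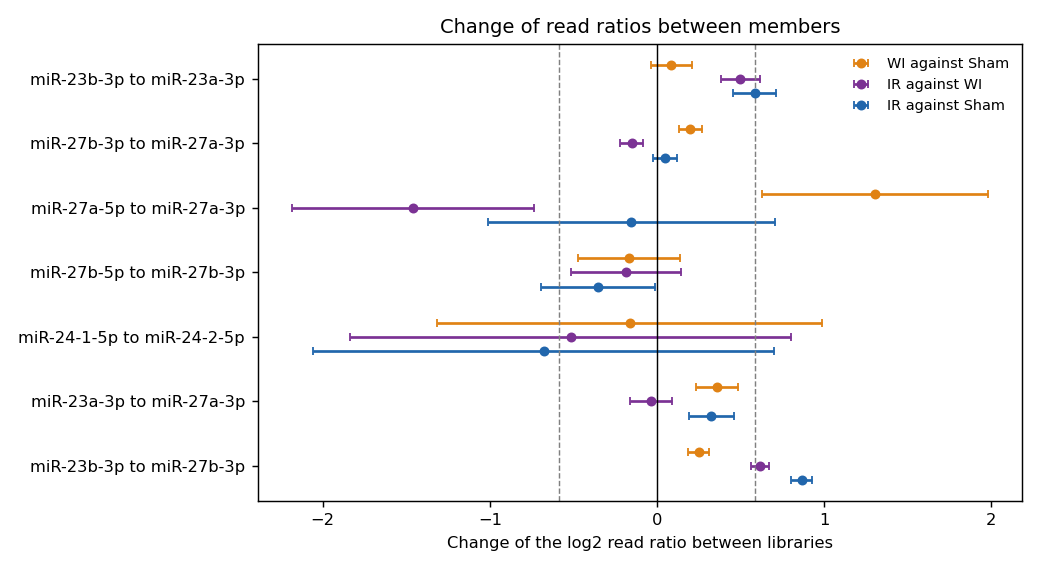
Difference of the log2 read ratio of each member pair between libraries (points, colored by comparison), with 95% intervals from the reads alone and dashed lines at 1.5-fold. The miR-23b-3p to miR-27b-3p and miR-23b-3p to miR-23a-3p ratios lie above 0 in both IR comparisons, and the miR-27a arm ratio is at 1.30 from Sham to WI and at -1.46 from WI to IR.

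The microRNAs nearest in pattern were found for each 3p arm among the 135 others with at least 1000 reads, by the distance between their pairs of log2 fold changes (WI and IR, each over Sham). The pattern spans only 3 libraries. Nearest to miR-23b-3p were miR-21a-3p (distance 0.21), miR-144-3p (0.25) and miR-10b-5p (0.32). MiR-144-3p, an erythroid marker, stood at 79.8, 107 and 123 CPM, and miR-451a, cut from the same locus, at 1037, 959 and 1838 CPM. MiR-23a-3p was closest to miR-30c-5p (0.04), miR-181b-5p (0.07) and miR-30b-5p (0.08).

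The remaining 3p arms, none of which was called, had nearer neighbors than miR-23b-3p. MiR-27b-3p was nearest to miR-30a-3p (0.02), miR-192-5p (0.03) and let-7b-5p (0.03). MiR-27a-3p was nearest to miR-183-5p (0.04), miR-151-5p (0.06) and miR-24-3p (0.07), and miR-24-3p to miR-151-5p (0.03), miR-20a-5p (0.04) and miR-27a-3p (0.07). Neither miR-23 paralogue had a member of either cluster among its 3 nearest. Few of the 135 microRNAs compared were members, so no conclusion is drawn from this absence.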

How the data were processed

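Small RNA libraries of mouse liver were sequenced, 1 each for the Sham, WI and IR groups, which were taken from the sample titles. The authors removed adaptors, selected reads by quality and length, aligned them with Bowtie 0.12.7 (1 mismatch), classified the alignments with HTSeq and obtained mature microRNA profiles with miRDeep2. The deposited values are raw counts without normalization. The methods name genome build mm9 for small RNA, whereas the submitters' processing notes list mm10. Counts carry no coordinates. No molecular identifiers were used.

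The members, lists and tests were chosen with earlier results of these data known. Counts were scaled by TMM in edgeR 4.0.16 (R 4.3.3; factors 1.03, 0.961 and 1.01). Fisher's exact test (scipy 1.17.1) and its thresholds followed the methods of the study. The scaled totals here were reads assigned to microRNAs, whereas the methods name the mapped reads of a sample. Without replicates a quasi-likelihood model in edgeR could not be fitted. Every member, the other products of the same hairpins and their opposite strand, seed sharers and the 3 nearest patterns of each 3p arm were named by rule. The marker miR-142a was read under its older name in the counts, miR-142. Calling was tested on simulated data. Alternatives changed scaling (including DESeq2 1.42.0), pseudocount, thresholds and assumed variation.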

Additional observations from a re-analysis of the deposited data

How the results depend on the processing

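With 1 library per group no replicate could be left out, and no paired analysis was possible because each group has 1 sample. Of 324 recomputed log2 fold changes of members, 304 stayed on the same side of the thresholds with the same sign, and 11 had the opposite sign. A call was lost in 7 and gained in 2, and most had no call to lose. Of 63 recomputed ratio changes, 59 stayed called or uncalled as before and 4 lost a call, and most had no call to lose. The number of members called, 1 in each comparison, stayed so in 27 of 36 recomputations. It was 0 in each comparison with edgeR's exact test at an assumed coefficient of variation of 0.2 or 0.4, and 0 in IR against Sham at a fold change above 2. It was 2 in IR against WI with library totals (miR-23b-3p gained) and 2 with genome-aligned totals (miR-27b-5p gained).

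With an assumed coefficient of variation of 0.2, the ratio calls were lost for miR-27a-5p to miR-27a-3p in WI against Sham (1.30), for miR-23b-3p to miR-27b-3p in IR against WI (0.62) and IR against Sham (0.87), and for miR-23b-3p to miR-23a-3p in IR against Sham (0.59). The fall of miR-27a-5p to miR-27a-3p from WI to IR kept its call. With assumed variation a ratio call needed a 95% interval that excluded no change, a looser rule than p below 0.01.

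The sign changes concerned uncalled log2 fold changes and came only from other scaling. Other thresholds leave a log2 fold change as it is, so those recomputations could not change a sign. In WI against Sham, library totals gave -0.022 for miR-27b-3p and -0.048 for miR-24-1-5p, and totals without the 10 most abundant microRNAs gave -0.0034 and -0.030. Genome-aligned totals gave 0.037 for miR-27a-3p, 0.068 for miR-27b-5p and 0.053 for miR-24-3p in that comparison. In IR against WI, library totals gave 0.053 for miR-24-3p, and genome-aligned totals gave -0.30 for miR-23a-3p and -0.26 for miR-27a-3p. In IR against Sham, genome-aligned totals gave -0.092 for miR-24-2-5p.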
